A study of Homo sapiens with 12 samples.

Results

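The 10 genes described here encode 5 ligands of the TGF-beta superfamily (BMP2, BMP5, TGFB1, TGFB2 and INHBA), the intracellular inhibitor SMAD7 and the 4 ID proteins (ID1, ID2, ID3 and ID4). They were the rows of the expression table whose gene name equalled one of these symbols, and each symbol matched 1 of 35337 rows. Their RNA was measured in EndoC-βH3 cells, a line with beta-cell properties derived from fetal human pancreas, by CEL-seq2, which counts reads from the 3′ end of polyadenylated transcripts. Every cell of the line carried transgenes for hTERT and the SV40 large T antigen, by which it keeps dividing, and for CreER, a tamoxifen-activated recombinase that excises both. Senescent cells had been treated with 4-hydroxytamoxifen (4-OHT) for 3 weeks, and non-senescent cells were controls without this treatment, with 6 libraries in each group. The titles divided the libraries into A (2 per group) and B (4 per group), taken here as batches, so the response was examined over both and within each. All libraries came from a single line, and the labels do not say whether replicates were separate cultures, so p-values measure only the spread between these samples. Excision of the transgenes, drug exposure and time in treatment came together in the senescent group and cannot be told apart.

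Ligands of this superfamily bind pairs of type I and type II serine/threonine kinase receptors. TGF-beta and activin signals are relayed mainly by SMAD2 and SMAD3 and BMP signals by SMAD1, SMAD5 and SMAD9, all with SMAD4 as the common partner, and SMAD7 is a feedback inhibitor that targets the activated receptors. ID genes are classical transcriptional targets of BMP signalling, and their products bind E proteins and so keep basic helix-loop-helix (bHLH) factors off the DNA. In the pancreas these signals take part in endocrine differentiation, and secreted TGF-beta family ligands are among the factors that senescent cells of other types are known to release.

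Depth ranged from 8873569 to 17106776 reads per library in batch A, but only from 4672924 to 7063264 in batch B. Within each batch the senescent libraries were deeper. They held 13059934 to 17106776 reads against 8873569 to 12792199 in A, and 5973370 to 7063264 against 4672924 to 5746836 in B. Read totals of the groups given below are not corrected for this, so equal totals do not mean equal levels. Values are normalised read counts, meaning reads divided by one size factor per library, on which 3 reads (the number that a count of 0 allows) equalled 1.35 to 2.38 in batch A and 3.15 to 4.52 in batch B. The first principal component held 57.6% of the variance, and whether it followed batch or group was not examined. Batch was a term of the model, and the study's own comparison of the groups also corrected for batch. In senescent cells the cell-cycle inhibitor CDKN1A was higher (log2 fold change 3.92) and the proliferation marker MKI67 lower (-2.83). All 12 beta-cell markers examined passed the filter, and by the rule given below 5 were called higher and 1 lower. Of all tested genes 11.6% were called higher and 11.8% lower. Insulin (INS) rose from a mean of 19853 to 99547, and the lower marker, PCSK1, fell from 661 to 350. However, somatostatin (SST), the hormone of delta cells, averaged 206128 in non-senescent and 128684 in senescent cells, so the beta-cell label does not describe all hormone RNA of the line. Among 8 mesenchymal markers, 1 was at 0 in every library and their sum ranged from 37.4 to 171 in non-senescent and from 29.6 to 91.6 in senescent cells. For 4 endothelial markers the sums were 4.77 to 24.8 and 3.74 to 14.5, with 1 at 0 throughout. For 4 leukocyte markers they were 22.3 to 51.1 and 17.5 to 40.9, also with 1 at 0. Of 4 acinar markers, the sum was 33.9 to 58.4 in non-senescent and 144 to 251 in senescent libraries, mostly from CPA1, while the other 3 had at most 5 reads in a group. Of 3 duct markers, the sum was 240 to 379 and 79.9 to 160, mostly from KRT19. The part of these marker levels in the results was not tested, and in bulk RNA fewer cells of a type cannot be told apart from less RNA per cell.

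Of the 10 genes, 5 averaged 5 or more normalised reads across the 12 libraries and were tested with limma (BMP2, TGFB2, ID1, ID2 and ID4), and 5 were not (BMP5, TGFB1, INHBA, SMAD7 and ID3). BMP5 lay just under this filter with a mean of 4.97, and TGFB2 was the lowest gene above it, with 11.6. Genes were called when the adjusted p was under 0.1 and the fold change exceeded 1.5. By this rule BMP2 and ID1 were higher in senescent cells, ID2 and ID4 were lower, and TGFB2 was not called. Of all 13847 genes tested, 23.4% were called in this way, 11.6% as higher and 11.8% as lower. The 10 genes were selected with results of these data known, so the share called among them is given as a description.

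**Figure D1:**
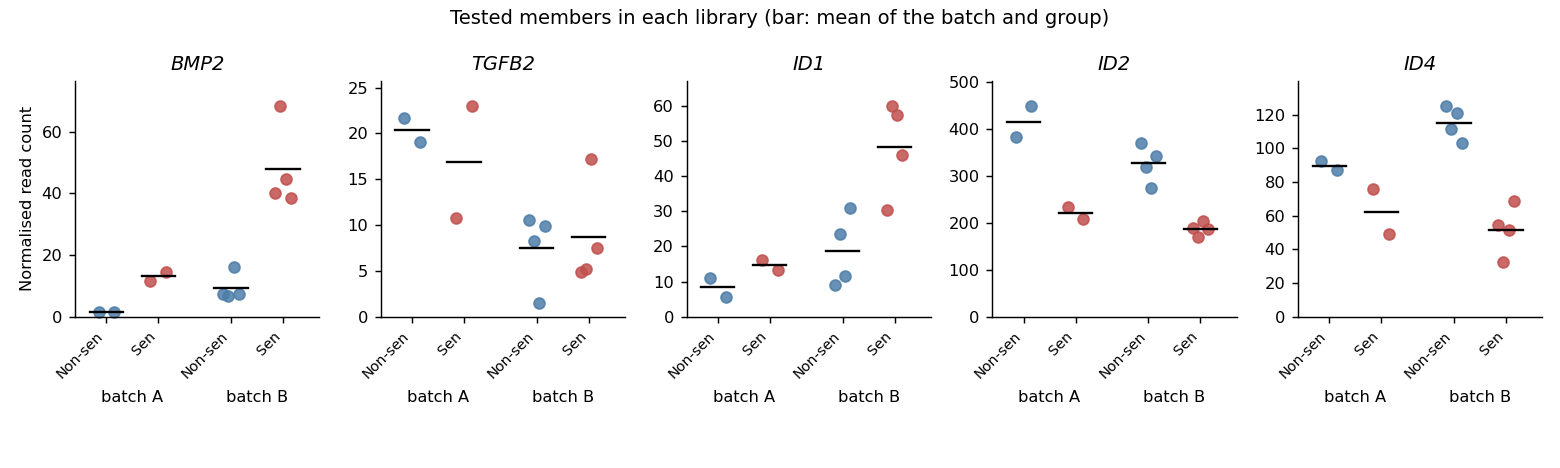
Normalised read count (vertical axis, from 0) of the 5 tested genes in each of the 12 libraries, with non-senescent (Non-sen, blue) and senescent (Sen, red) cells shown for batches A and B, points as libraries and bars as the mean of each batch and group. BMP2 was higher and ID2 and ID4 were lower in every senescent library than in every non-senescent library of the same batch, ID1 was higher with an overlap in batch B, and the TGFB2 groups overlapped in both batches.

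Among the ligands, BMP2, a secreted BMP that signals through BMPR1A and BMPR2, showed the largest change of the tested genes in the group. It lies on chromosome 20 (6767686 to 6780246, plus strand; GRCh38, GENCODE v44). Its normalised read counts in non-senescent cells were 1.67 and 1.59 in batch A and 7.53, 6.88, 16.1 and 7.45 in batch B. In senescent cells they were 11.7 and 14.5 in batch A and 40.0, 68.2, 44.6 and 38.6 in batch B. All senescent libraries lay above all non-senescent libraries of their own batch, whereas the batch A senescent libraries lay below the highest non-senescent library, B3. BMP2 rose from 6.87 ± 5.30 to 36.3 ± 20.9 (SD, n = 6), or 4.97-fold (log2 fold change 2.31 ± 0.275 (SE); limma, adjusted p = 3.74e-06). Batch A gave 2.41 and batch B 2.26, and the rise was called in all 24 alternatives run, with log2 fold changes from 1.49 to 2.50. The gene rested on few reads, in total 32 without and 218 with senescence, and non-senescent batch A libraries held 3 and 2.

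TGFB2 encodes a TGF-beta ligand that is secreted in latent form, and lies on chromosome 1 (218345336 to 218444619, plus strand). In non-senescent cells it measured 21.7 and 19.1 in batch A and 10.5, 8.26, 1.46 and 9.94 in batch B. Senescent libraries gave 10.8 and 22.9 in batch A and 4.85, 5.25, 17.2 and 7.47 in batch B. Neither batch separated the groups, and the means were 11.8 ± 7.41 and 11.4 ± 7.26 (SD, n = 6). The log2 fold change was 0.05 ± 0.421 (SE; limma, adjusted p = 0.946), so the standard error itself left room for changes in either direction. Its sign was not stable, as batch A gave -0.35 and batch B 0.24, and as it was -0.31 when non-senescent library B3, with a single read, was left out. TGFB2-OT1 overlaps it on the same strand, where assignment by strand would not separate their reads. The antisense gene TGFB2-AS1 also overlaps TGFB2, and whether reads were assigned by strand is not given in the sources used here. This limit of strand also holds for ID2 (ID2-AS1), ID4 (LNC-LBCS), INHBA (INHBA-AS1) and TGFB1, which overlaps HNRNPUL1, CCDC97 and TMEM91 on the other strand. TGFB1 also overlaps a gene without a symbol on its own strand.

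The other 3 ligands were detected by few reads. BMP5 (chromosome 6, 55753653 to 55875590), a BMP ligand, was detected almost only in batch A. There it measured 15.0 and 18.3 in non-senescent and 11.2 and 12.7 in senescent cells, from 27, 23, 25 and 21 reads. In batch B, 2 libraries, B2 of each group, had 1 read each and the other 6 had 0. The batch A and batch B libraries did not overlap, which was the case for 39.3% of the tested genes. Within batch A both senescent values lay below both non-senescent values (log2 difference of the means of the log2 values -0.44), and over all libraries the reads were 51 and 47. A model without the filter gave a log2 fold change of -0.18 ± 0.341 (SE; limma, adjusted p = 0.732).

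INHBA (chromosome 7, 41667168 to 41705834), which encodes the subunit of activin A, was covered by 12 reads in all non-senescent libraries together and by 38 in all senescent ones. Non-senescent libraries held between 0 and 4 reads and senescent libraries between 3 and 15. The senescent library B3 alone held 15 of the 38 reads, at a normalised read count of 17.2 against 1.81 to 7.35 in the other senescent libraries. Without the filter the log2 fold change was 1.10 ± 0.508 (SE; limma, unadjusted p = 0.0480, adjusted p = 0.158), which did not pass. TGFB1 (chromosome 19, 41301587 to 41353922), the founding TGF-beta ligand, had 9 reads in each group and at most 4 in a library. At these depths a change of TGFB1 was not detectable.

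**Figure D2:**
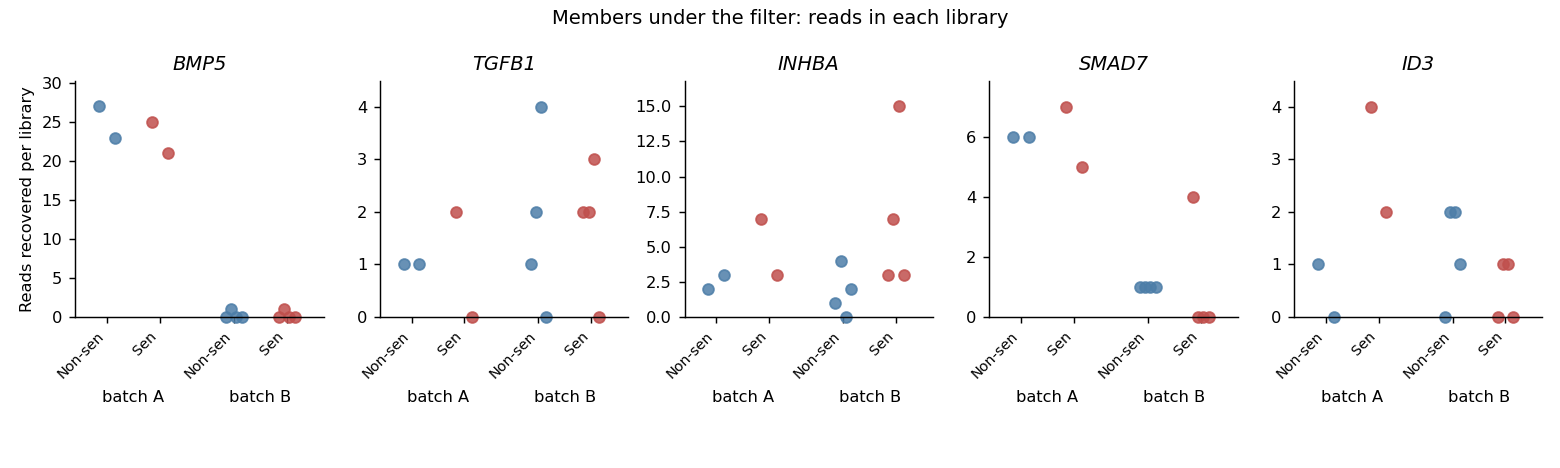
Reads recovered per library (vertical axis, from 0, not normalised) for the 5 genes under the filter, in non-senescent (Non-sen, blue) and senescent (Sen, red) cells of batches A and B, each point a library. BMP5 had 21 to 27 reads in each batch A library and at most 1 in each batch B library, INHBA reached 15 reads in senescent library B3, and TGFB1 and ID3 never exceeded 4 reads.

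The inhibitor SMAD7 (chromosome 18, 48919853 to 48950965) had 16 reads in each group. Batch A held 24 reads in 4 libraries, with 6 and 6 in non-senescent and 7 and 5 in senescent cells. Batch B held 8 reads in 8 libraries, with 1 in each non-senescent library, 4 in senescent library B1 and 0 in the other 3 senescent libraries. No library held over 7 reads, and without the filter the log2 fold change was -0.51 ± 0.421 (SE; limma, adjusted p = 0.481). Of the 5 genes under the filter, 0 were called without it, and 1 (INHBA) had an unadjusted p under 0.05 (limma). Of all genes fitted without the filter 14.9% were called, 7.67% as lower.

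The ID genes did not move together. ID1 rose, ID2 and ID4 fell, and ID3 was hardly detected. The promoter windows of the 3 changed genes are shown because these relatives moved in different directions. Each is the 250 bases before the RefSeq start of the gene on the plus strand (GRCh38.p14), at chr20:31605039-31605288 for ID1, chr2:8681806-8682055 for ID2 and chr6:19837120-19837369 for ID4. The gene spans printed in this report follow GENCODE, whose starts differ for ID1 and ID2. The ID1 window therefore ends just inside its printed span, and the ID2 window lies within its printed span. Capitals mark the SMAD-binding core GTCT (AGAC on the other strand) and the E-box CANNTG, which is the site of E proteins and other bHLH factors:
ID1: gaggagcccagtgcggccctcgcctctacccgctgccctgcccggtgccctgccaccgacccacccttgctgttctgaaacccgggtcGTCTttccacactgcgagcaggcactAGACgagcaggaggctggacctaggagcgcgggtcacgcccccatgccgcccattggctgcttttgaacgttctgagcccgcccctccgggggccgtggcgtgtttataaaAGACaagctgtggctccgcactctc
ID2: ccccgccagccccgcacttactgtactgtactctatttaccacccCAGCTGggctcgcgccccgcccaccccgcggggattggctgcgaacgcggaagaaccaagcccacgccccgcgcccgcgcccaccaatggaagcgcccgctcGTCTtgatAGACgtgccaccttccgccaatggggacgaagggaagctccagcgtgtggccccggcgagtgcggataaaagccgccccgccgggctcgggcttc
ID4: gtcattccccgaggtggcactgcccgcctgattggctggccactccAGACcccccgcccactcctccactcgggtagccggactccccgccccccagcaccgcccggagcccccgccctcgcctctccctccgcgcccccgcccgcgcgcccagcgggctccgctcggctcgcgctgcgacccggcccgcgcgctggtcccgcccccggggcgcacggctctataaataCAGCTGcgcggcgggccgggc
The ID1 window held 3 copies of GTCT and 0 E-boxes, that of ID2 held 2 and 1, and that of ID4 held 1 and 1, counting both strands. Both E-boxes had the letters CAGCTG. Of 35116 promoter windows of the same length, 77.5% held GTCT and 61.8% an E-box. The box TATAAA was in the windows of ID1 and ID4 but not of ID2, against 10.7% of all windows. The letters GGCGCC (16.4% of all windows) and TGACG (21.2%) were in none of the 3. Such short matches are descriptions of sequence and not evidence of binding.

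ID1 lies on chromosome 20 (31605283 to 31606515, plus strand). Its normalised read counts in non-senescent cells were 11.1 and 5.56 in batch A and 9.03, 23.4, 11.7 and 31.1 in batch B. In senescent cells they were 16.2 and 13.3 in batch A and 30.3, 59.8, 57.2 and 46.1 in batch B. Both batch A senescent libraries lay above both non-senescent ones, while in batch B the highest non-senescent library, B4, lay just above the lowest senescent library, B1. ID1 rose from 15.3 ± 9.78 to 37.1 ± 20.3 (SD, n = 6), with a log2 fold change of 1.22 ± 0.311 (SE), or 2.33-fold (limma, adjusted p = 0.00480). Batch A gave 0.81 and batch B 1.43. The call was lost without the batch term (limma, adjusted p = 0.110) and in batch A alone (0.145).

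ID2 (chromosome 2, 8678845 to 8684461, plus strand) was the best measured gene of the group, with 2189 reads in total before and 1511 after senescence. Non-senescent values were 381 and 447 in batch A and 369, 319, 275 and 342 in batch B. Senescent values were 234 and 209 in batch A and 188, 170, 204 and 186 in batch B. The 6 senescent libraries all lay below the 6 non-senescent ones. ID2 fell from 356 ± 58.9 to 198 ± 22.3 (SD, n = 6), to 0.563 of its level (log2 fold change -0.83 ± 0.0951 (SE); limma, adjusted p = 2.45e-06). Both batches gave a change of nearly the same size, -0.90 in A and -0.80 in B, and over 24 alternatives it ranged from -0.94 to -0.79 and was always called.

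ID4 (chromosome 6, 19837370 to 19842197, plus strand) also fell. In non-senescent cells it measured 92.3 and 87.4 in batch A and 125, 112, 121 and 103 in batch B. Senescent libraries gave 75.9 and 48.9 in batch A and 54.5, 32.5, 51.5 and 68.5 in batch B. The groups did not overlap, and ID2 and ID4 were the 2 tested genes of the 10 for which this held, against 10.2% of all tested genes (4.61% as higher and 5.57% as lower). Within both batches the groups did not overlap for 3 (BMP2, ID2 and ID4), against 23.8% of all tested genes. ID4 fell from 107 ± 15.3 to 55.3 ± 15.3 (SD, n = 6), to 0.510 of its level (log2 fold change -0.97 ± 0.186 (SE); limma, adjusted p = 4.93e-04). The change was -0.55 in batch A, where it did not pass alone (adjusted p = 0.113), and -1.18 in batch B.

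ID3 (chromosome 1, 23557926 to 23559501, minus strand) was covered by 6 non-senescent and 8 senescent reads, at most 4 of them in any library. It was at 0 in 2 non-senescent and 2 senescent libraries, and no difference was detectable at this depth.

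Summed over ID1 to ID4, normalised read counts were 479 ± 43.7 in non-senescent and 292 ± 26.0 in senescent cells (SD, n = 6). The sums ranged from 411 to 540 and from 263 to 328, without overlap, and the ratio of the means was 0.609 (log2 -0.72; batch A -0.77, batch B -0.68). No test was made on this sum. These are shares of 3′-end reads, which were not divided by gene length. ID2 supplied most of them, 73.9% in non-senescent and 68.1% in senescent cells, and ID4 supplied 22.6% and 18.8%. The share of ID1 was 3.27% ± 2.11 in non-senescent and 12.9% ± 7.24 in senescent cells (SD, n = 6). In batch A it went from 1.66% to 4.90%, and in batch B from 4.07% to 16.9%.

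**Figure D3:**
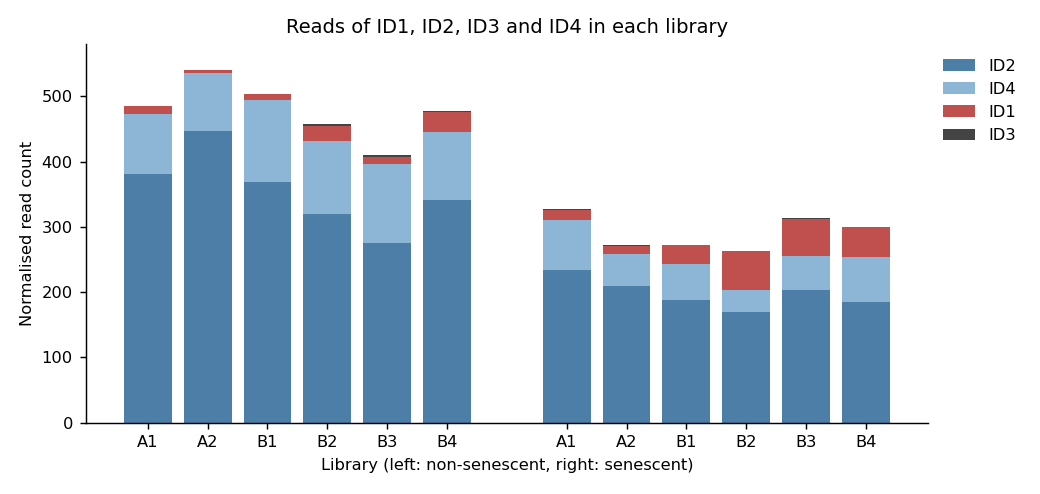
Normalised read counts of ID1, ID2, ID3 and ID4 stacked for each library (vertical axis, from 0), with the 6 non-senescent libraries on the left and the 6 senescent ones on the right, named by replicate. The stacks reached 411 to 540 in non-senescent and 263 to 328 in senescent cells, with smaller ID2 and ID4 segments and a larger ID1 segment in the senescent libraries.

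To place these genes in their pathway, 106 other genes of TGF-beta, activin, BMP and ID signalling were listed by role, and all were found in the table. Of these, 54 passed the filter and 12 had 0 reads in every library. In senescent cells 5 were higher and 6 were lower, so that 20.4% of those tested were called, near the 23.4% of all tested genes. The median log2 fold change was 0.0054 for the list and 0.0122 for all tested genes.

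**Figure D4:**
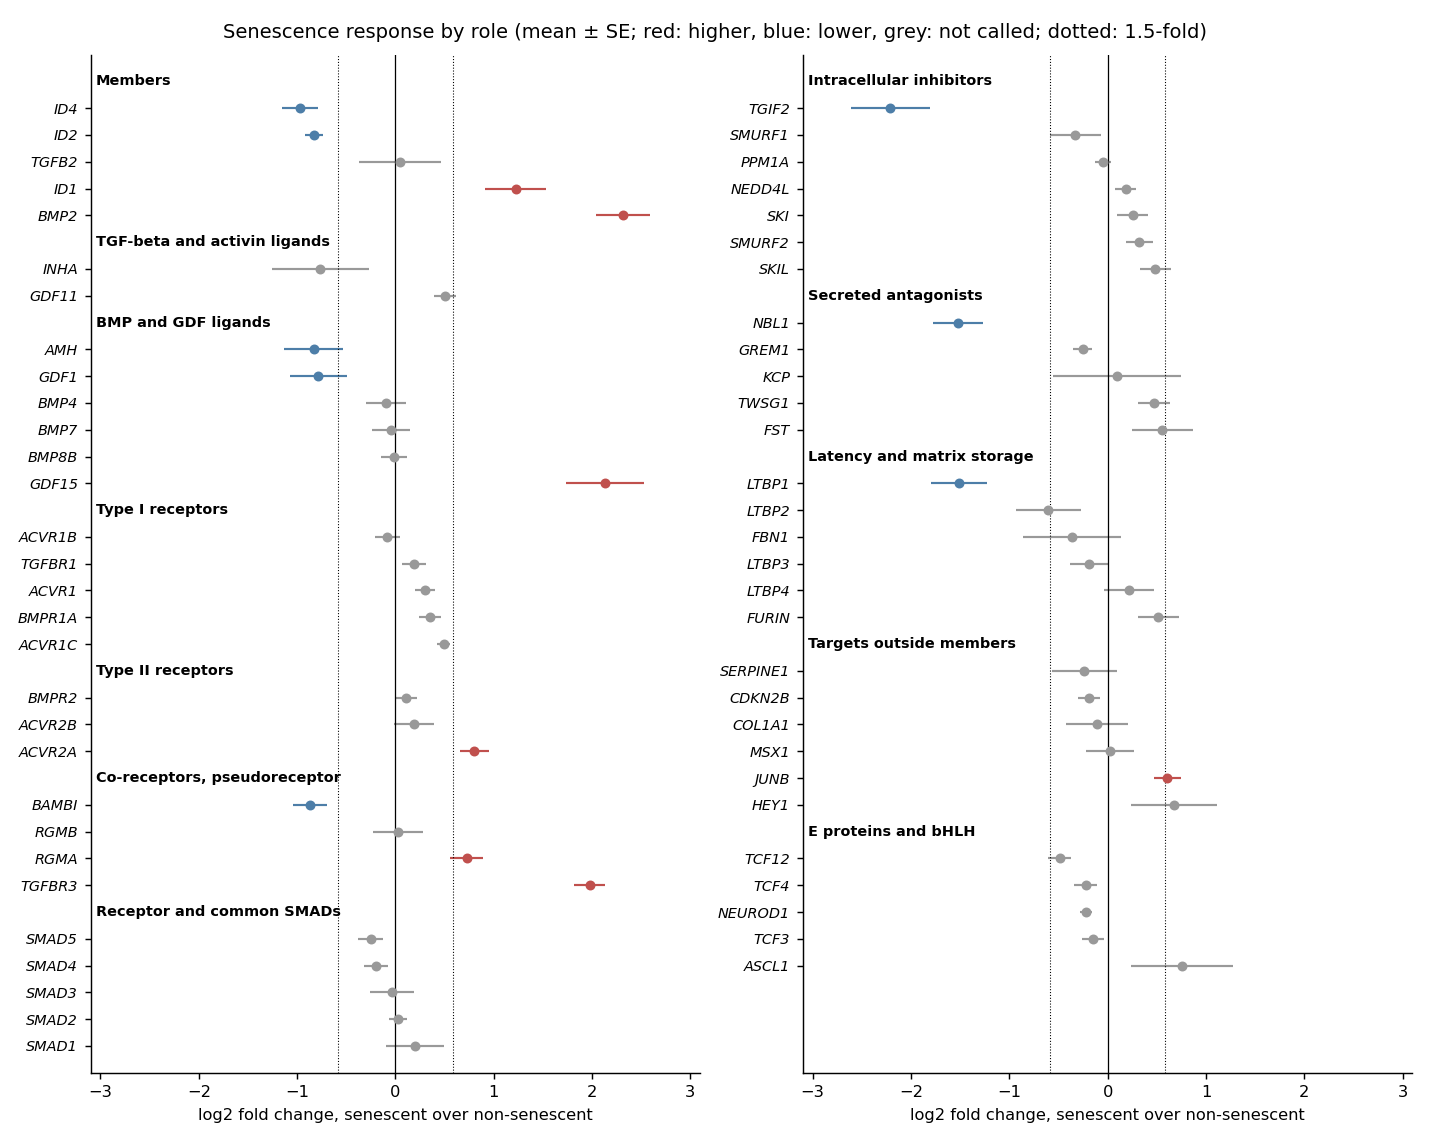
Log2 fold change of senescent over non-senescent cells (horizontal axis; points with SE bars from limma over 12 libraries) for the 5 tested genes of the group (headed Members) and the 54 tested genes of the pathway list, by role; red genes were called higher, blue lower and grey not called, with dotted lines at a 1.5-fold change. Called genes were among the ligands, type II receptors, co-receptors, intracellular inhibitors, antagonists, latency proteins and targets, and none of the 5 SMADs or the 5 type I receptors was called.

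Of the 10 other TGF-beta and activin ligands, 2 were tested and 0 were called by limma, edgeR or DESeq2. Of these 2, 1 had a limma adjusted p under 0.1 but lay under the fold limit. Of the 18 other BMP and GDF ligands, 6 were tested, 1 rose and 2 fell. GDF15, a stress-induced cytokine of the superfamily, rose from 7.70 ± 2.08 to 45.9 ± 29.4 (SD, n = 6; log2 fold change 2.13 ± 0.395 (SE), limma adjusted p = 3.82e-04). Batch B gave a change of 3.02, and batch A, where the groups overlapped, one of 0.33. AMH, the hormone of Müllerian duct regression, fell from 20.7 to 12.3 (-0.83, adjusted p = 0.0391), and GDF1, a ligand of left-right patterning, from 18.6 to 10.3 (-0.79, adjusted p = 0.0409). In batch B they changed by -1.30 and -1.17, and in batch A by 0.09 and -0.02, differences that did not pass the interaction test. With a pseudocount of 8 both lay under the fold limit (-0.55 and -0.53), and the AMH call was also lost without the batch term (adjusted p = 0.149). GDF1 shares its locus and strand with CERS1, so its reads are uncertain.

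Among the receptors, 0 of 5 tested type I receptors passed the fold limit with limma, edgeR or DESeq2, although 3 of them had a limma adjusted p under 0.1. The type II activin receptor ACVR2A was the 1 called of 3 tested, rising from 135 ± 33.4 to 230 ± 7.57 (log2 fold change 0.80 ± 0.147 (SE), limma adjusted p = 3.40e-04). Its groups did not overlap, ranging from 85.4 to 168 and from 221 to 238, and it overlaps ORC4 on the other strand. Of 4 tested co-receptors, 2 rose and 1 fell. TGFBR3 (betaglycan), which presents TGF-beta 2 and inhibin to the signalling receptors, rose from 117 ± 21.8 to 467 ± 117 (1.97 ± 0.155 (SE), adjusted p = 2.53e-08), with groups at 87.7 to 145 and 321 to 591. The BMP co-receptor RGMA rose from 49.6 to 78.9 (0.73, adjusted p = 0.00233) and was under the fold limit in batch B alone (0.50). BAMBI, a pseudoreceptor without a kinase domain, fell from 99.2 to 58.4 (-0.87, adjusted p = 6.11e-04), and its call was lost without the batch term (adjusted p = 0.306).

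Inside the cell, 0 of 5 tested receptor-regulated and common SMADs were called by limma, edgeR or DESeq2, and 0 had an unadjusted p under 0.05 with limma. Their log2 fold changes ran from -0.25 (SMAD5) to 0.20 (SMAD1). In batch A alone SMAD5 changed by -0.60 (limma, adjusted p = 0.0112) and passed both limits, against -0.08 in batch B. SMAD3 gave -0.54 in A (limma, adjusted p = 0.0241, under the fold limit) and 0.22 in B. SMAD2 gave -0.25 and 0.17, SMAD4 -0.20 and -0.20, and SMAD1 1.04 and -0.22. In batch A the non-senescent mean of SMAD1 was only 1.07. None of the 5 passed the interaction test, and their values were seen before this description. Of 7 tested intracellular inhibitors, 3 had a limma adjusted p under 0.1 and 1, the co-repressor TGIF2, was called. It fell from 94.4 ± 24.4 to 24.1 ± 17.2 (-2.21 ± 0.404 (SE), limma adjusted p = 3.33e-04). Batch A gave -1.11 and batch B -2.76. TGIF2 shares its strand with the readthrough gene TGIF2-RAB5IF. Of 5 tested secreted antagonists, 3 had a limma adjusted p under 0.1 and 1, NBL1, which binds BMPs, was called. It fell from 71.5 ± 14.3 to 25.8 ± 9.94 (-1.52 ± 0.255 (SE), limma adjusted p = 1.46e-04) without overlap of the groups, though the readthrough gene MICOS10-NBL1 may share its reads. Of 6 tested latency and matrix proteins, 2 had a limma adjusted p under 0.1 and 1, LTBP1, which binds latent TGF-beta, was called. It fell from 52.9 ± 25.6 to 17.9 ± 8.84 (-1.51 ± 0.289 (SE), limma adjusted p = 4.81e-04). LTBP2, a related matrix protein, was called lower by edgeR (-0.78, adjusted p = 0.0686) and DESeq2 (-0.80, 0.0550) but not by limma (-0.61, 0.163), and was named after its values were seen.

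Of 6 tested targets outside the 10 genes, the AP-1 gene JUNB was the 1 called, from 410.5 to 609 (0.60 ± 0.137 (SE), limma adjusted p = 0.00205). It lay close to the 1.5-fold limit and fell under it without any single one of the 4 batch A libraries, with 0.51 without non-senescent A1, 0.56 without non-senescent A2, 0.52 without senescent A1 and 0.55 without senescent A2. It was also under the limit in batch B alone (0.31) and after scaling to equal totals (0.50). HOOK2 overlaps it on the other strand. Of 5 tested E proteins and bHLH factors, which are the partners of ID proteins and their targets, 0 passed the fold limit with limma, edgeR or DESeq2, and 2 had a limma adjusted p under 0.1. These were TCF12 (-0.49), an E protein, and NEUROD1 (-0.22), a bHLH factor of islet cells, both named after their values were seen.

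The response of the 5 tested genes was then compared between batches. With the interaction of batch and group, 0 of them differed at an adjusted p under 0.1 in limma, edgeR or DESeq2, and 0 had an unadjusted p under 0.05 in limma, against 4.21% of all tested genes called. The estimates of batch B minus batch A were -0.15 ± 0.586 for BMP2, 0.59 ± 0.904 for TGFB2, 0.62 ± 0.661 for ID1, 0.10 ± 0.195 for ID2 and -0.63 ± 0.369 for ID4 (SE). A missed threshold does not show that both batches responded alike. Of the 54 tested pathway genes 4 differed between batches. GDF15 and TGFBR3 rose more in batch B, by 2.69 (adjusted p = 0.0136) and 0.91 (0.0652), and JUNB rose less, by -0.87 (0.0301). The type I receptor ACVR1B differed by 0.75 (0.0685), between -0.58 in batch A and 0.17 in B. The count was 3 to 4 when 1 batch B library was left out. Fewer genes passed when a batch A library was left out, which leaves 1 library in an arm of that batch. Such fits cannot tell dependence on the batch A values from lost precision.

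**Figure D5:**
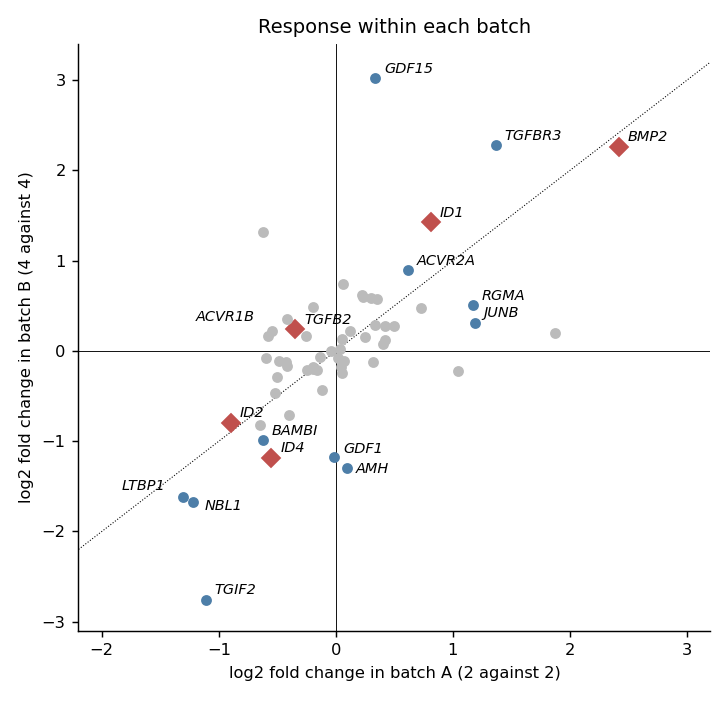
Log2 fold change of senescent over non-senescent cells within batch A (horizontal axis, 2 against 2 libraries) and within batch B (vertical axis, 4 against 4), with the 5 tested genes of the group as red diamonds, called pathway genes in blue and other tested pathway genes in grey; the dotted line marks equal changes. BMP2 (2.41 and 2.26) and ID2 (-0.90 and -0.80) lay close to the line, whereas GDF15 (0.33 and 3.02) lay far above it.

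For each tested gene, the genes with the most similar pattern over the 12 libraries were sought by Pearson's r of the log2 values after subtracting each batch mean, among all genes with a mean of at least 20. The libraries share batch, group and depth, so a gene that moves with senescence is similar by construction, and r is a description. BMP2 was closest to CIRBP (0.981), JAK1 (0.980) and SLC25A12 (0.975), and ID1 to GAA (0.965), TMPRSS6 (0.950) and PPP1R13B (0.941). ID2 was closest to TROAP (0.978), CMC2 (0.977) and WFDC2 (0.975), and ID4 to SYT7 (0.964), C19orf48 (0.961) and JPT1 (0.953). TGFB2 was closest to FNIP1 (0.912), SLC25A32 (0.906) and MTMR2 (0.882).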

How the data were processed

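RNA of 6 senescent and 6 non-senescent EndoC-βH3 samples was profiled by CEL-seq2. Per the submitters' processing notes, the authors used cutadapt, Salmon 0.13.1, DESeq2 and GRCh38. The transcript annotation and the treatment of molecular identifiers are not given in the sources used here, so reads may not be independent molecules, and the 3-read level covers counting error only. What the authors deposited is a signal, namely reads per gene divided by a size factor per library. Every nonzero value (100% of 196021) was a whole multiple of its column's smallest value within 0.01, so reads could be recovered. The other 6 deposited columns, the authors' DESeq2 comparison, were not used.

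Genes with a mean of at least 5 were tested on log2(value + 1) with limma 3.58.1 (intensity trend, batch and group, Benjamini-Hochberg over 13847 genes) in R 4.3.3. Fold changes on this scale understate changes of low genes. Calls needed an adjusted p under 0.1 with a fold over 1.5, and batch differences were tested by interaction. Alternatives were pseudocounts of 0.5 and 8, other filters, TMM and equal-total scaling, no batch term, a replicate block, single batches, single libraries left out, edgeR 4.0.16 (which called 1561 genes higher and 1677 lower) and DESeq2 1.42.0 on the reads. On simulated data over 13847 genes, 200 were given known changes. For the group comparison, 75% of genes with a log2 change of 1 and 93% with 2 were called. The changed genes were drawn from all tested genes, whose median SE in the main fit was 0.157. The SE of TGFB2 was 0.421, so these rates cannot be applied to low genes such as TGFB2. For the difference between batches, 32% with a log2 difference of 1 and 78% with 2 were called, so smaller differences were often missed. When no gene was changed, 0 were called for the group comparison. Read numbers of libraries sharing group and batch differed by more than sampling noise (chi-square per degree of freedom 4.28 to 8.05).

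The 10 genes and the lists were chosen with earlier results of these data known. Named pathway genes were up to 3 called genes per role with the largest change and those differing between batches. Others (TCF12, NEUROD1, SMAD1, SMAD2, SMAD3, SMAD4, SMAD5, LTBP2 and the low genes of the closing section) were chosen after their values were seen.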

Additional observations from a re-analysis of the deposited data

Results flagged for a closer look

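Within groups of 4 libraries of one batch, 3 of 68 values examined held a library far from the other 3, and chance flags about 1 in 20 such groups. For BMP2 the non-senescent library B3 stood above the other 3 non-senescent batch B libraries at a normalised read count of 16.1. For GDF15 non-senescent library B2 was the highest at 8.26, and for LTBP1 senescent library B1 was the lowest at 8.48. Without non-senescent B3 the log2 fold change of BMP2 was 2.48.

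The senescence response differed between batches, by the interaction test with limma, for 4 pathway genes. Its log2 difference, batch B minus batch A, was 2.69 for GDF15, 0.91 for TGFBR3, 0.75 for ACVR1B and -0.87 for JUNB. The same test gave 2.60 for CDKN1A (adjusted p = 0.00191), which rose more in batch B, and 0.94 for MKI67 (adjusted p = 0.0220), which fell less there. None of the 5 tested genes among the 10 passed this test.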

How the results depend on the processing

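Of the 10 genes, 4 were called in all 12 fits that left out 1 library (4 to 4) and in every other alternative run except 2: without the batch term 3 were called, and in batch A alone 2. Of the pathway list 9 to 15 genes were called over all alternatives, and 10 to 13 with 1 library left out. A replicate block left the counts at 4 and 11, though replicate names did not pair the samples. The r of deviations was -0.051 to 0.016, and no non-senescent library was closest to its senescent namesake. In batch A, with 2 libraries per group, both replicates give the same r by construction. The count of genes differing between batches was 0 to 4 with 1 library left out. Leaving out a batch A library left 1 library in an arm, and that library was assumed to vary like the others. The log2 ratio of the summed ID reads was -0.82 with libraries scaled to the same total, which moved the median of all genes from 0.01 to -0.09, and -0.72 with TMM. That scaling left 1226 genes higher and 2090 lower instead of 1605 and 1632. Without the batch term 1037 were higher and 1106 lower.

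TGFB2 changed sign to -0.0157 with a pseudocount of 8, -0.0467 with the same total, -0.0384 with edgeR, -0.0181 with DESeq2 and -0.345 in batch A alone, and lay between -0.306 and 0.223 with 1 library left out. AMH was 0.0941 in batch A alone. ACVR1B was 0.168 in batch B alone and -0.155 to 0.0220 with 1 library left out, the latter without non-senescent A2. The causes were not tested. TGFB1, INHBA, SMAD7 and ID3 had at most 38 reads in a group, and BMP5 had 96 of its reads in batch A and 2 in batch B.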

Other observations

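Below the filter, 4 further pathway genes were called lower in senescent cells when all genes with a read were fitted with limma, against 1741 lower calls among all 22707 genes. They were chosen after their values were seen, rest on few reads and entered that fit through the group where they are high, so the count supports nothing. INHBE, an activin subunit gene, had all of its 25 reads in the 2 non-senescent libraries of batch A and 0 in the other libraries (log2 fold change -1.07, limma adjusted p = 0.0977), so batch B held no values to compare (interaction, limma adjusted p = 5.44e-04). LEFTY2, an inhibitor of nodal signalling, had 31 non-senescent and 9 senescent reads (-1.85, limma adjusted p = 0.0112). TGFBR2, the type II TGF-beta receptor, had 23 and 12 (-1.01, limma adjusted p = 0.0910), and CHRDL1, a BMP antagonist, 21 and 10 (-1.24, limma adjusted p = 0.0327).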
